A study of Capra hircus with 8 samples.

Results

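Solute carriers (the SLC genes) are membrane proteins that move amino acids, ions, metals, nucleosides, sugars, vitamins and other small molecules across the cell surface and the membranes of organelles. The genes described here are the solute carriers expressed in goat (Capra hircus) embryos of 8 cells. Their names start with SLC and a digit, and they reached at least 1 FPKM (fragments per kilobase of transcript and per 1000000 fragments) in at least 2 of the 4 libraries; SLC2A1 and SLC2A3 were left out. Of 22107 entries in the messenger RNA table, 323 carried such a name and 152 reached that level. The genes were thus chosen by name and by their measured FPKM level, so the levels are given as a description. The second-highest library stood at 1.03 FPKM for SLC44A2, SLC48A1 and SLC35B2, which lie just inside the threshold, and at 0.987 for SLC35F2, 0.969 for SLC19A3 and 0.936 for SLC33A1, which lie just outside it.

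The libraries came from embryos made by in vitro fertilisation (IVF, 2 libraries) and by somatic cell nuclear transfer (SCNT, 2 libraries), where a body cell nucleus takes the place of the egg nucleus. All were read at the 8-cell stage, and the study addressed genome activation in SCNT embryos. The series also holds 2 libraries each of IVF and SCNT embryos of 4 cells, which the messenger RNA table does not cover. Embryos were lysed whole and polyadenylated RNA was amplified by Smart-seq2, a full-length cDNA protocol for very small inputs. The labels name neither the breed, the donor cell type, the number of embryos per library nor whether replicates were separate pools, so p-values measure only the spread between these libraries, which may be technical. In whole embryos, fewer cells and less of an RNA per cell cannot be told apart.

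An embryo begins life on carriers laid down in the egg and replaces them as it starts to transcribe its own genes. Carriers of the plasma membrane set which nutrients can enter, the SLC25 family joins the mitochondrial matrix to the cytosol, and the SLC30 and SLC39 families move zinc out of and into the cytosol. SLC35 proteins bring nucleotide sugars into the Golgi apparatus and endoplasmic reticulum, where they serve glycosylation.

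SCNT replicate 2 stood apart from the other libraries. Across genes, which are not independent replicates, it correlated with the IVF libraries at r = 0.78 and 0.82, against 0.89 and 0.91 for SCNT replicate 1 and 0.96 between the IVF libraries. Depth was similar: the read totals behind the scaling, recovered from the values and gene lengths, lay between 27.5 and 30.3 M (M, 1000000 reads). The carriers had a median of 452 reads, and 3 of them had under 10 reads in some library. Marker sums differed between libraries. Summed FPKM of 13 oocyte and early embryo markers, all present in every library, was 2693 and 2909 in IVF and 3861 and 5880 in SCNT. Summed FPKM of 5 epithelial markers was 9.33 and 6.89 in IVF and 23.2 and 38.4 in SCNT. For 18 fibroblast markers the sum was 141 and 133 in IVF and 110 and 129 in SCNT, lower in both SCNT libraries. The sums of 12 cumulus and granulosa markers (64.4 to 97.8) overlapped between groups, with INHA, AMH and FSHR at 0 in every library. Within the fibroblast list, TIMP1 and TAGLN passed as higher in SCNT, and 8 of the 11 genes tested had positive differences; DCN, an abundant member, read 94.3 and 85.5 FPKM in IVF and 33.9 and 39.5 in SCNT. ZAR1L and KHDC3L of the oocyte list passed as higher. The sums of 3 blood markers (2.8 to 14.1) also overlapped, and 6 sperm markers summed to 8.3 and 11.7 in IVF and 18.6 and 32.4 in SCNT. Nearly all of the sperm sum was ODF2, at 7.55 and 11 in IVF and 18.4 and 32.1 in SCNT. ODF2 was the 1 sperm marker tested and did not pass. The part of all these markers in the carrier results was not tested.

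Expression was uneven across the families. Of 41 SLC25 names in the table, 31 were expressed, compared with 17 of 29 metal ion carriers, 13 of 23 nucleoside and nucleotide sugar carriers, 24 of 56 inorganic ion carriers, 19 of 47 amino acid carriers and 45 of 122 carriers of other substrates. Another 3 of the 152 names belong to proteins that are no transporters: SLC9A3R1, a scaffold protein, SLC7A6OS and SLC4A1AP. Of the 171 names left out, 21 reached 1 FPKM in a single library, 139 stayed below it in every library and 11 were listed at 0 throughout. The SLC1 family of glutamate and neutral amino acid carriers had 1 expressed gene of 7, SLC1A5, while SLC7, which exchanges cationic and neutral amino acids, had 8 of 12. None of the 5 names of the SLC13 family, carriers of dicarboxylates and sulfate, was expressed.

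Some carriers with known roles in early embryos or in most cells were at or near 0. SLC6A9, a glycine carrier, read 0.0345 and 0 FPKM in IVF, and 0 and 0.224 in SCNT. SLC6A6, the taurine carrier, read 0.00566 FPKM in IVF replicate 1 and was listed at 0 in the other libraries. SLC35A2, the UDP-galactose carrier of the Golgi, read 0.388 and 0.0988 in IVF and 0.762 and 0.56 in SCNT. SLC25A6 was not analysed here.

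The 3 carriers with the highest means were a zinc importer and a pair of mitochondrial carriers. SLC39A12, a zinc importer, led at 181 and 233 FPKM in IVF and 178 and 96.2 in SCNT, which placed its mean at rank 389 among the 10303 genes at this level. SLC25A26, which brings the methyl donor S-adenosylmethionine into mitochondria, had 111 and 119 FPKM in IVF and 108 and 184 in SCNT. SLC25A51, the mitochondrial NAD carrier, had 143 and 144 FPKM in IVF and 127 and 62 in SCNT. SLC25A26 overlapped between the groups, whereas SLC39A12 and SLC25A51 were lower in both SCNT libraries than in either IVF library, narrowly in SCNT replicate 1.

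Carriers known from nerve terminals were also among the abundant transcripts. SLC6A5, a glycine carrier known from glycinergic neurons, read 54.3 and 87.1 FPKM in IVF and 86.3 and 168 in SCNT. SLC6A4, the serotonin carrier, read 71.5 and 79.4 FPKM in IVF and 78.3 and 88.3 in SCNT. For both genes the groups overlapped. The 10 most abundant of the 152 genes held 42.7% of their summed FPKM.

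**Figure D1:**
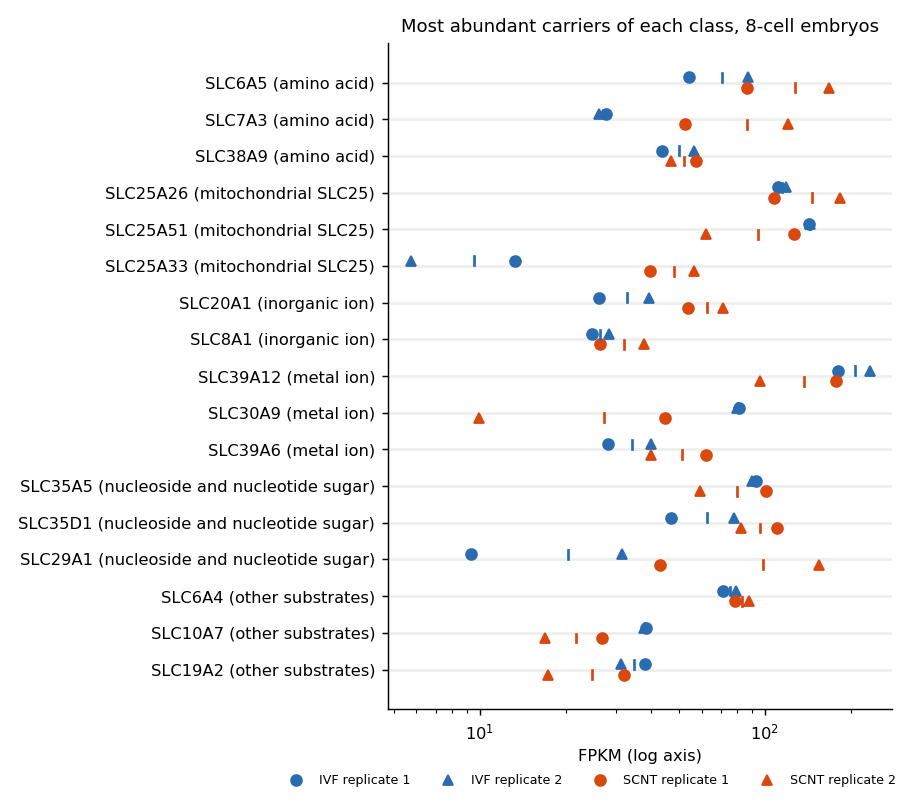
Up to 3 carriers of each class, among those with the highest means, as FPKM on a log axis, with 1 point per library (circle, replicate 1; triangle, replicate 2; blue, IVF; orange, SCNT) and a tick at the group mean. SLC6A4 lies between 71.5 and 88.3 in all 4 libraries, whereas SLC30A9 spans 9.91 to 80.9 and SLC29A1 9.35 to 155.

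The comparison of SCNT with IVF embryos gave few calls. With limma on log2(FPKM + 1), 5 carriers were higher in SCNT at an adjusted p under 0.05: SLC34A2, SLC3A2, SLC25A33, SLC15A4 and SLC31A1. Another 2, SLC35D2 and SLC30A1, were lower. This is 3.29% and 1.32% of the 152 genes, beside 3.02% higher and 0.844% lower (3.86% in all) among all 10303 genes tested, so the share is near the background. Both SCNT libraries lay above both IVF libraries for 78 carriers (51.3%, against 46.9% of all genes tested) and below both for 24 (15.8%, against 17.1%). The level threshold bears on these counts, because 20 carriers entered through the SCNT libraries alone and 1, SLC22A3, through the IVF libraries alone. Among the other 131 carriers the shares were 44.3% and 17.6%, against 42.2% and 17.4% of the 9170 genes that entered likewise.

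Scaling sets where 0 lies in this comparison. The median log2 difference, SCNT minus IVF, of all genes tested was 0.39 on the deposited scale, -0.10 after centring each library on its median, 0.44 after rescaling each library to the same sum and -0.01 after quantile normalization. The carriers' median was 0.51, 0.02, 0.57 and 0.03 on those scales. The split of 5 higher and 2 lower carriers was 2 to 4 with centring, 11 to 3 with rescaling and 2 to 2 with quantile normalization. Among all 10303 genes tested the split was 158 to 238, 1133 to 194 and 121 to 150. On the deposited scale it was 311 to 87. Of the 11 carriers, SLC2A8, SLC39A1, SLC39A7 and SLC5A6 had entered through the SCNT libraries alone. SLC22A3, lower after centring and after quantile normalization, had entered through the IVF libraries alone. Differences are on the log2(FPKM + 1) scale of the deposited values, which understates the change of low genes, and each is best read against the shift of 0.39. Of all genes tested, 6781 of 10303 (65.8%) had a positive difference on that scale, and the counts of positive differences given by class are to be read beside that share. Among the 9170 genes that did not enter through 1 group alone, 63.5% were positive and the median was 0.30. Class values without the carriers that entered through 1 group alone are to be read beside those.

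**Figure D2:**
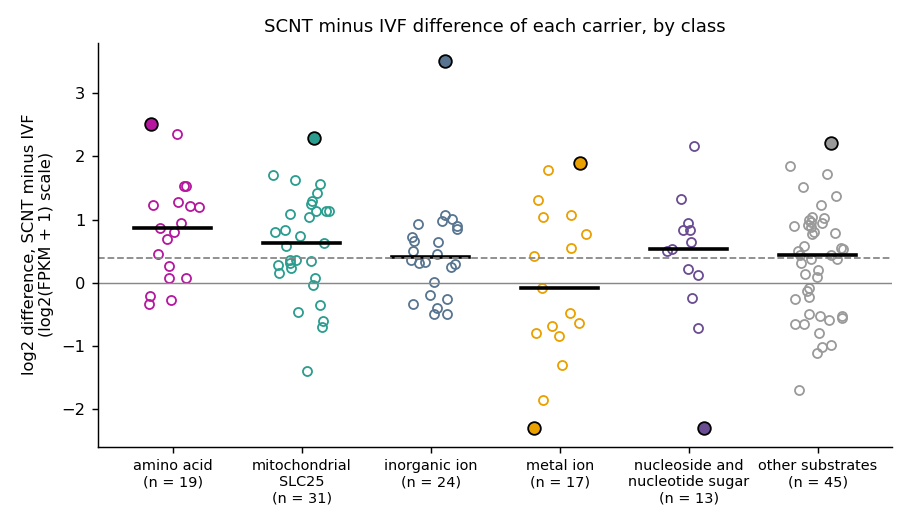
Log2 difference (SCNT minus IVF, log2(FPKM + 1) scale) of each carrier, by class. Filled points pass the test, bars are class medians and the dashed line is the median of all genes tested (0.39); the metal ion class has its median at -0.08 and the amino acid class at 0.87.

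Among the 19 amino acid carriers, 1 passed as higher in SCNT and none as lower. That gene is SLC3A2, the glycoprotein heavy chain that brings several SLC7 light chains to the cell surface. It read 8.57 and 11.3 FPKM in IVF embryos, against 48.6 and 76.7 in SCNT embryos. Both SCNT libraries were above both IVF libraries, and the log2 difference was 2.52 ± 0.44 (SE, n = 2 and 2; adjusted p = 0.033). The class had 16 positive differences of 19 (84.2%, against 65.8% of all genes tested) and a median of 0.87, which became 12 of 19 and 0.38 after centring. Without SLC7A5, which entered through the SCNT libraries alone, the deposited scale gave 15 of 18 and 0.84.

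The light chains that pair with SLC3A2 did not pass. SLC7A5, which exchanges large neutral amino acids, read 0.643 and 0.979 FPKM in IVF and 1.48 and 5.91 in SCNT (log2 difference 1.20 ± 0.52, adjusted p = 0.159). SLC7A8, a related exchanger, read 1.87 and 1.63 in IVF and 4.68 and 10.3 in SCNT (1.54 ± 0.49, adjusted p = 0.0836). SLC7A6, which exchanges cationic for neutral amino acids, read 14.7 and 17.9 in IVF and 24.2 and 38.5 in SCNT. SLC7A6OS is its neighbour on the chromosome, and whether the counting could share reads between them is not given in the sources used here. SLC7A7, the light chain of epithelial cationic amino acid export, read 6.91 and 6.6 in IVF and 10.2 and 18.8 in SCNT. SLC7A11, the cystine and glutamate exchanger, stood at 4.09 and 4.97 in IVF and 4.93 and 4.71 in SCNT, so its groups overlapped. The other 4 light chains named here were higher in both SCNT libraries, with SCNT replicate 2 the highest. Of these, SLC7A5 entered through the SCNT libraries alone, so its direction followed from the level threshold.

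SLC7A3, a cationic amino acid carrier that needs no heavy chain, was the more abundant of a pair of such carriers. It read 27.7 and 26.3 FPKM in IVF and 52.7 and 121 in SCNT, a log2 difference of 1.53 ± 0.48 that missed the threshold (adjusted p = 0.0821). SLC7A2, of the same kind, read 3.64 and 4.48 in IVF and 9.56 and 13.3 in SCNT. All 8 expressed SLC7 genes had positive differences (median 1.07), which became 6 of 8 after centring and 7 of 8 after quantile normalization. The 8 include SLC7A5, which entered through the SCNT libraries alone.

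None of the other amino acid carriers described here passed. SLC1A5, which exchanges glutamine, serine and alanine, read 3.51 and 1.32 FPKM in IVF and 9.8 and 24.3 in SCNT (log2 difference 2.35 ± 0.58, adjusted p = 0.0576). Its groups did not overlap, although the IVF and SCNT pairs each varied more than 2-fold. SLC38A2, a sodium-coupled carrier that responds to amino acid supply, read 2.83 and 2.52 in IVF and 3.07 and 3.78 in SCNT. SLC38A9, the arginine sensor of the lysosome, was abundant and level, at 43.5 and 56.5 in IVF and 57.5 and 47 in SCNT. SLC17A8, a vesicular glutamate carrier, read 7.76 and 12.4 in IVF and 18.9 and 31.3 in SCNT and did not pass (adjusted p = 0.123).

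Among the 31 mitochondrial SLC25 carriers, 1 passed as higher in SCNT and none as lower. SLC25A33, which carries pyrimidine nucleotides into the mitochondrial matrix, read 13.3 and 5.73 FPKM in IVF and 39.7 and 56.3 in SCNT. The SCNT libraries were above both IVF libraries, with a log2 difference of 2.30 ± 0.50 (adjusted p = 0.0476). SLC25A36, the other pyrimidine nucleotide carrier, read 30.4 and 18.1 in IVF and 26.3 and 12.5 in SCNT, with overlapping groups. The class had 25 positive differences of 31 (80.6%) and a median of 0.63, which became 17 of 31 and 0.13 after centring. Without SLC25A3, SLC25A15 and SLC25A30, which entered through the SCNT libraries alone, the deposited scale gave 22 of 28 and 0.47.

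The ADP/ATP carriers, which exchange the products of oxidative phosphorylation, did not pass. SLC25A4 read 7.73 and 9.08 FPKM in IVF and 12.4 and 57.1 in SCNT, so its SCNT mean rested on replicate 2 (log2 difference 1.57 ± 0.66, adjusted p = 0.15). SLC25A5 read 5.6 and 2.98 in IVF and 3.74 and 5.84 in SCNT, with overlapping groups; this gene is known for near-identical copies in mammalian genomes, and how such reads were counted is not given in the sources used here. SLC25A31, the ADP/ATP carrier of germ cells, read 3.86 and 1.91 in IVF and 3.87 and 3.74 in SCNT. SLC25A3, the mitochondrial phosphate carrier, was low throughout at 0.755 and 0.727 in IVF and 2.33 and 1.93 in SCNT.

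Several carriers of carbon and amino acid metabolites had their highest value in SCNT replicate 2. SLC25A11, the oxoglutarate carrier of the malate-aspartate shuttle, read 6.79 and 11.8 FPKM in IVF and 15.7 and 62.6 in SCNT (log2 difference 1.70 ± 0.65, adjusted p = 0.12). Its shuttle partners SLC25A12 and SLC25A13, the aspartate and glutamate carriers, had differences of 1.13 ± 0.52 and 1.09 ± 0.44. SLC25A22, a glutamate carrier, read 0.616 and 1.18 in IVF and 2.5 and 8.6 in SCNT (adjusted p = 0.092). For these 4 genes both SCNT libraries were above both IVF libraries, and none passed.

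In the opposite direction, SLC25A16 read 8.22 and 7.94 FPKM in IVF and 3.41 and 1.72 in SCNT, with a log2 difference of -1.39 ± 0.47 (adjusted p = 0.094). SLC25A51, SLC25A43 and SLC25A46 were also lower in both SCNT libraries, with differences of -0.69, -0.46 and -0.61. None of these 4 genes passed.

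Among the 24 inorganic ion carriers, 1 passed as higher in SCNT and none as lower. SLC34A2, a sodium-dependent phosphate carrier of epithelia, had the largest difference of all 152 genes. It read 1.01 and 1.17 FPKM in IVF, from 115 and 147 reads, and 18.3 and 28.7 in SCNT, from 2138 and 3369 reads. The groups were far apart compared with either pair, and the log2 difference was 3.51 ± 0.46 (adjusted p = 0.0223). The epithelial markers KRT5, KRT8, KRT18, CDH1 and EPCAM were also summed higher in SCNT, as given above, and KRT8 passed the test. Their part in the SLC34A2 result was not tested.

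SLC20A1, the widespread phosphate carrier, was the more abundant phosphate importer and did not pass. It read 26.3 and 39.3 FPKM in IVF and 53.8 and 71.3 in SCNT (log2 difference 0.93 ± 0.42, adjusted p = 0.174). SLC8A1, the sodium and calcium exchanger, read 24.7 and 28.3 in IVF and 26.4 and 37.6 in SCNT. SLC12A2, which brings in sodium, potassium and chloride, read 11.4 and 10 in IVF and 18.1 and 10.9 in SCNT. Neither of the latter pair passed, and the groups of both overlapped.

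Carriers of bicarbonate and other anions and an endosomal exchanger were at low or moderate level. SLC4A4, a sodium bicarbonate carrier, read 13.9 and 15.2 FPKM in IVF and 16.1 and 13.6 in SCNT, and its groups overlapped. SLC26A6, an anion exchanger, read 0.845 and 1.75 in IVF and 2.75 and 5 in SCNT (1.08 ± 0.45, adjusted p = 0.146). SLC9A9, an exchanger of endosomes, was lower in both SCNT libraries, at 13.3 and 14.4 in IVF and 9.98 and 9.23 in SCNT, without passing. The class had 18 positive differences of 24 (75%) and a median of 0.41, close to the shift of all genes, which became 11 of 24 and -0.09 after centring. Without SLC12A8 and SLC9A8, which entered through the SCNT libraries alone, the deposited scale gave 16 of 22 and 0.35.

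The 17 metal ion carriers had calls in both directions. SLC30A1, the zinc exporter of the plasma membrane, read 63.7 and 47 FPKM in IVF and 16.4 and 6.37 in SCNT. Both SCNT libraries were below both IVF libraries, with a log2 difference of -2.30 ± 0.51 (adjusted p = 0.0496). SLC31A1, the copper importer of the plasma membrane, read 9.22 and 6.76 in IVF and 33.8 and 30.3 in SCNT. Here both SCNT libraries were above both IVF libraries and close to each other, with a log2 difference of 1.89 ± 0.42 (adjusted p = 0.04995).

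Of the 5 expressed zinc exporters of the SLC30 family, SLC30A1 alone passed. SLC30A9, a zinc carrier of mitochondria, read 80.9 and 79.8 FPKM in IVF and 44.8 and 9.91 in SCNT (log2 difference -1.86 ± 0.63, adjusted p = 0.0972). It was lower in both SCNT libraries, which differed more than 4-fold from each other. SLC30A5, SLC30A4 and SLC30A7, which load zinc into vesicles and the secretory pathway, had differences of -0.80 ± 0.46, -0.68 ± 0.54 and -0.08 ± 0.41, and the groups of SLC30A4 overlapped. The fitted differences of all 5 were negative on each of the 4 scales above and with any library left out, although those of SLC30A4 and SLC30A7 were small compared with their errors. Their summed FPKM was 174 and 154 in IVF and 84.2 and 28.8 in SCNT.

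Zinc importers of the SLC39 family were mixed, with 5 positive and 3 negative differences on each of the 4 scales and none passing on the deposited scale. After rescaling to the same sum SLC39A1 (adjusted p = 0.0309) and SLC39A7 passed as higher. Both entered through the SCNT libraries alone, so their direction followed from the level threshold. SLC39A7 was near the floor, at 0 and 0.31 FPKM in IVF, from 0 and 21 reads. In SCNT it read 1.15 and 1.6, from 73 and 102 reads. SLC39A6 read 28.2 and 40 FPKM in IVF and 62.4 and 39.8 in SCNT, with overlapping groups. SLC39A10, its relative, read 30.4 and 30.6 in IVF and 21.2 and 12.9 in SCNT (log2 difference -0.84 ± 0.43, adjusted p = 0.22). SLC39A8, an importer of zinc and manganese, read 8.76 and 9.99 in IVF and 3.6 and 2.85 in SCNT (-1.30 ± 0.44, adjusted p = 0.0974). SLC39A1 went the other way, at 0.477 and 0.195 in IVF and 1.7 and 6.88 in SCNT (1.79 ± 0.52, adjusted p = 0.0724), and entered through the SCNT libraries alone. SLC31A2, a relative of the copper importer, read 2.81 and 3.46 in IVF and 7.69 and 11.1 in SCNT (adjusted p = 0.101). The class had 8 positive differences of 17 (47.1%) and a median of -0.08, which became 7 of 17 and -0.58 after centring. SLC39A1, SLC39A7 and SLC39A9 were the 3 genes that entered through the SCNT libraries alone. Without them the deposited scale gave 5 of 14 and -0.56, beside a median of 0.30 for all genes that entered likewise.

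Among the 13 nucleoside and nucleotide sugar carriers, none passed as higher and 1 as lower. SLC35D2, a nucleotide sugar carrier of the Golgi, read 21.7 and 23.9 FPKM in IVF and 2.57 and 5.53 in SCNT. The IVF libraries agreed closely and both SCNT libraries were far below them, with a log2 difference of -2.30 ± 0.48 (adjusted p = 0.0445). Its relative SLC35D1, a nucleotide sugar carrier of the endoplasmic reticulum, was higher in both SCNT libraries, at 46.7 and 78.2 in IVF and 110 and 82.5 in SCNT (0.64 ± 0.43, adjusted p = 0.332). The 2 genes thus differed in sign, and the difference between them was not tested.

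SLC29A1, which lets nucleosides equilibrate across the plasma membrane, had the largest positive difference of the class. It read 9.35 and 31.6 FPKM in IVF and 42.8 and 155 in SCNT, so both pairs varied more than 3-fold and the log2 difference of 2.17 ± 0.71 did not pass (adjusted p = 0.0912). SLC28A1, which takes up pyrimidine nucleosides with sodium, read 2.12 and 3.67 in IVF and 7.42 and 9.74 in SCNT (1.32 ± 0.47, adjusted p = 0.104). SLC35A1, the CMP-sialic acid carrier, read 15.1 and 19.8 in IVF and 13.6 and 7.44 in SCNT, lower in both SCNT libraries. SLC35A5, the most abundant SLC35A gene, read 93.3 and 90.1 in IVF and 101 and 59.3 in SCNT, with overlapping groups. The class had 10 positive differences of 13 (76.9%) and a median of 0.54, which became 8 of 13 and 0.04 after centring. Without SLC35B2 and SLC43A3, which entered through the SCNT libraries alone, the deposited scale gave 8 of 11 and 0.50.

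Among the 45 carriers of other substrates, 1 passed as higher and none as lower. SLC15A4, which exports histidine and small peptides from lysosomes, read 3.64 and 5.88 FPKM in IVF and 19.3 and 32.6 in SCNT. Both SCNT libraries were above both IVF libraries, with a log2 difference of 2.21 ± 0.48 (adjusted p = 0.0482). SLC46A3, another lysosomal carrier, read 16.9 and 13.1 in IVF and 4.84 and 3.08 in SCNT, and its difference of -1.70 ± 0.46 missed the threshold (adjusted p = 0.065).

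Vitamin carriers were split. SLC5A6, which takes up biotin and pantothenate, read 0.71 and 0.924 FPKM in IVF and 4.18 and 4.19 in SCNT (log2 difference 1.51 ± 0.39, adjusted p = 0.06), and entered through the SCNT libraries alone. SLC52A3, a riboflavin carrier, read 1.97 and 2.72 in IVF and 4.94 and 19.2 in SCNT (1.72 ± 0.62, adjusted p = 0.107). SLC19A2, a thiamine carrier, read 37.9 and 31.4 in IVF and 32.1 and 17.4 in SCNT, with overlapping groups.

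SLC16A1, a lactate and pyruvate carrier, read 5.33 and 3.49 FPKM in IVF and 12 and 6.39 in SCNT and did not pass (adjusted p = 0.256). SLC10A3 read 0.652 and 3.05 in IVF and 5.95 and 11.6 in SCNT (log2 difference 1.85 ± 0.57, adjusted p = 0.0798). SLC10A7 was lower in both SCNT libraries, at 38.2 and 37.6 in IVF and 26.8 and 16.9 in SCNT. SLC47A1, an exporter of organic cations, read 9.99 and 8.11 in IVF and 4.39 and 23.7 in SCNT, so the SCNT libraries lay on either side of the IVF pair. The class had 29 positive differences of 45 (64.4%, near the share of all genes) and a median of 0.44, which became 21 of 45 and -0.06 after centring. Without the carriers that entered through 1 group alone, 9 by SCNT and 1 by IVF, the deposited scale gave 20 of 35 and 0.21.

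**Figure D3:**
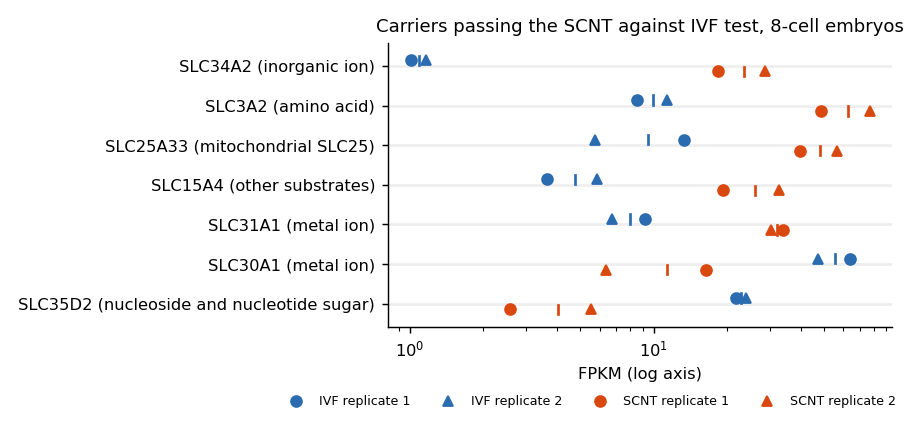
FPKM on a log axis of the 7 carriers that pass the test, with 1 point per library (circle, replicate 1; triangle, replicate 2; blue, IVF; orange, SCNT) and a tick at the group mean. The groups do not overlap for any of the 7, with SLC34A2 at 1.01 and 1.17 in IVF and 18.3 and 28.7 in SCNT, and SLC35D2 at 21.7 and 23.9 in IVF and 2.57 and 5.53 in SCNT.

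The 7 calls were not stable to the choice of libraries. Without SCNT replicate 2, none of the 152 carriers passed in limma (34 had an unadjusted p under 0.05), and the 7 had adjusted p-values from 0.062 to 0.112, while 0.126% of all genes were higher and 0.320% lower. The log2 differences of the 7 without that library kept their signs: SLC34A2 3.20, SLC3A2 2.19, SLC25A33 2.05, SLC31A1 1.96, SLC15A4 1.84, SLC30A1 -1.68 and SLC35D2 -2.74. SLC34A2 alone of the 7 passed when either IVF library was left out (adjusted p = 0.0156 and 0.00959). All 7 passed without SCNT replicate 1, when the spread came from the IVF pair alone. After centring and after quantile normalization SLC34A2, SLC3A2 and SLC35D2 passed, and SLC30A1 passed after centring but not after quantile normalization (adjusted p = 0.0502). SLC15A4, SLC25A33 and SLC31A1 passed on neither of those scales.

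The scaffold gene SLC9A3R1, which is no transporter, read 3.41 and 11.1 FPKM in IVF and 30.7 and 64.4 in SCNT. Its log2 difference was 2.64 ± 0.60, the largest after that of SLC34A2, and it missed the threshold narrowly (adjusted p = 0.0501).

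The 152 genes, the 3 that are no transporters included, made up 0.458% and 0.541% of all FPKM in IVF embryos, against 0.61% and 0.644% in SCNT embryos. The amino acid sum was 190 and 248 FPKM in IVF and 346 and 581 in SCNT. The SLC25 sum was 414 and 433 in IVF and 490 and 684 in SCNT. The inorganic ion sum was 176 and 209 in IVF and 252 and 282 in SCNT. These 3 classes were higher in both SCNT libraries, and so was the nucleoside and nucleotide sugar class, at 210 and 265 in IVF and 308 and 355 in SCNT. The other substrates differed least, at 330 and 341 in IVF and 344 and 398 in SCNT. The metal ion sum was the only one lower in both SCNT libraries, at 477 and 511 in IVF and 445 and 258 in SCNT. It made up 25.1% and 24.2% of the sum over the 152 genes in IVF and 19.1% and 9.4% in SCNT. Of all FPKM it made up 0.115% and 0.131% in IVF and 0.117% and 0.0605% in SCNT, where the groups overlapped. With 2 libraries against 2, an exact permutation test cannot go below a two-sided p of 0.333, so no class sum was called different.

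In some classes a few genes gave most of the difference. Of the metal ion difference of -143 FPKM between group means, SLC39A12 gave -69.6, SLC30A9 -53 and SLC30A1 -44, and the rest summed to 24. Without SCNT replicate 2 that difference was -49.2 FPKM, and without SCNT replicate 1 it was -236. Of the amino acid difference of 245 FPKM, SLC7A3 gave 60, SLC6A5 56.6 and SLC3A2 52.8; it was 127 without SCNT replicate 2 and 363 without SCNT replicate 1. Of the nucleoside and nucleotide sugar difference of 93.6 FPKM, SLC29A1 gave 78.4. The SLC25 difference of 163 FPKM was spread over more genes, with 143 from those other than SLC25A51, SLC25A33 and SLC25A26. It was 66.3 without SCNT replicate 2 and 260 without SCNT replicate 1. The difference of the other substrates was 35.8 FPKM, and 8.89 and 62.8 without those libraries.

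**Figure D4:**
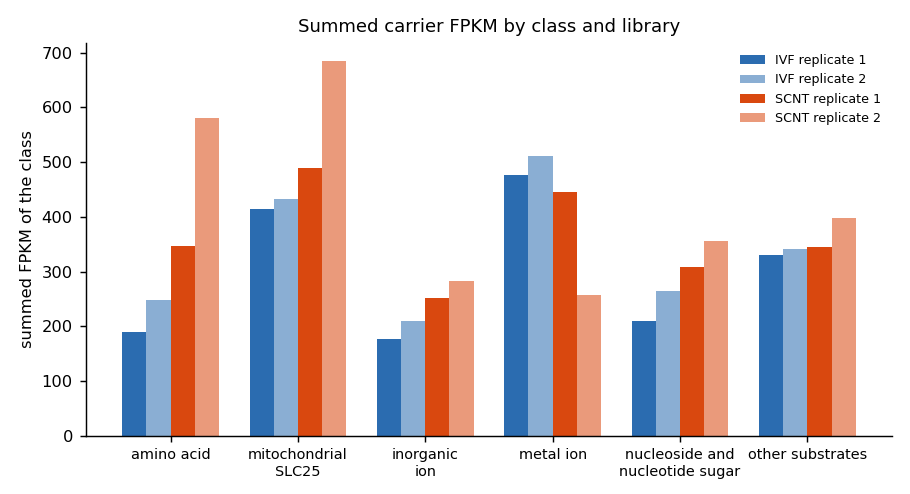
Summed FPKM of the expressed carriers of each class, with 1 bar per library from 0. The metal ion bars go from 477 and 511 in IVF to 445 and 258 in SCNT, while the amino acid bars go from 190 and 248 to 346 and 581.

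Replicates of SCNT embryos differed more than those of IVF embryos. The median absolute log2 difference between replicates was 0.34 for the carriers in IVF and 0.63 in SCNT, beside 0.30 and 0.63 for all genes tested. The SCNT difference, replicate 2 minus replicate 1, had a class median of 0.66 for amino acid, 0.49 for SLC25, 0.33 for inorganic ion, 0.25 for nucleoside and nucleotide sugar and 0.17 for other carriers, beside 0.25 for all genes. For metal ion carriers that median was -0.64, and 12 of the 17 were lower in replicate 2 and 5 higher. Among all 10303 genes tested, 6254 were higher in SCNT replicate 2. These values describe 2 libraries and have no test.

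**Figure D5:**
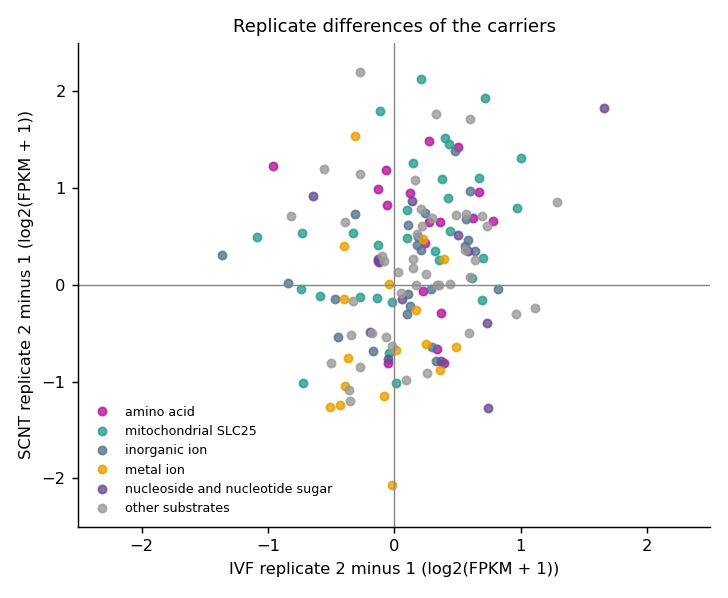
Replicate 2 minus replicate 1 on the log2(FPKM + 1) scale for each carrier, in IVF embryos (x axis) and SCNT embryos (y axis), coloured by class. Points spread further along the SCNT axis (median absolute difference 0.63) than along the IVF axis (0.34), and metal ion carriers gather below 0 on the SCNT axis.

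Other transport genes, from lists of pumps and channels, held few calls, beside 3.02% higher and 0.844% lower among all 10303 genes tested. Of 19 V-ATPase subunits tested, which acidify lysosomes and vesicles, 1 was higher in SCNT (ATP6V0C). Of 21 mitochondrial porins and import genes, 2 were higher (TIMM22 and TIMM13). None of 10 sodium, calcium and other P-type pumps, 16 ABC transporters, 1 aquaporin and 17 genes of lysosomal amino acid sensing passed in limma, and none of the genes in any of these lists passed as lower.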

How the data were processed

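The authors deposited FPKM values per gene for 4 libraries of goat 8-cell embryos, 2 IVF and 2 SCNT. Tools named are fastp, HISAT2 2.2.1 and HTSeq, per the submitters' processing notes, which state no roles. The build is not given in the sources used here. No coordinates or sequences are printed. The other 3 deposited tables hold long non-coding RNAs and were not used. A RefSeq gene table (assembly ARS1.2) served for names, neighbours and the gene lengths used to recover read totals, and matched all 152 genes.

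The read totals behind the FPKM were recovered from the steps between low values and the RefSeq lengths of short genes. They were 27.5 and 30.3 M (M, 1000000 reads) in IVF and 28.4 and 28.5 M in SCNT. With them, 10300 of 10303 tested genes (99.97%) gave whole reads in every library, within 0.0001 read. PCR copies cannot be told from separate molecules.

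Genes that reached 1 FPKM in at least 2 libraries were tested with limma 3.58.1 (lmFit, eBayes with a variance trend; R 4.3.3) on log2(FPKM + 1), two-sided, with Benjamini-Hochberg adjustment over all 10303 genes and a threshold of 0.05. The procedure was tested on simulated data. Python 3.11.15 computed levels and sums. Carriers were put into 6 classes by SLC family. The 44 named carriers are, in each class, the 3 highest by mean, those that passed, the 2 largest differences that did not pass without overlap, and the largest SCNT replicate difference, together with a list of known embryo carriers; others were named after their values were seen. The genes, classes, lists and marker sets (oocyte, fibroblast, cumulus and granulosa, blood, sperm, epithelium) were chosen with earlier results of these data known. Some carriers that this rule takes in are not reported here. Replicate numbers were not used as pairs. Alternatives were other pseudocounts, filters, scalings, fits and libraries left out; limma-voom on the recovered reads was added after seeing the data.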

Additional observations from a re-analysis of the deposited data

How the results depend on the processing

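The carriers higher and lower in SCNT numbered 5 and 2 in the fit reported, beside 311 and 87 of all 10303 genes tested. The carriers were 2 and 0 at a mean of at least 5 FPKM, beside 52 and 25 of all 6199 genes. Median centring gave 2 and 4, beside 158 and 238 of all 10303 genes. Rescaling gave 11 and 3 beside 1133 and 194, and quantile normalization 2 and 2 beside 121 and 150. Without the variance trend the carriers were 3 and 1, beside 211 and 71. A pseudocount of 0.1 gave 5 and 1, beside 332 and 87. Membership and filter at 0.5 FPKM gave 2 and 0, beside 161 and 56 of all 11939 genes. Without a filter on low values the carriers were 0 and 0 in limma, and none of all 20289 genes passed. In that fit 31 carriers had an unadjusted p under 0.05, beside 3661 of all genes. Leaving out 1 library at a time gave 0 to 47 higher and 0 to 13 lower. Both upper ends came from the fit without SCNT replicate 1, where the spread came from the IVF pair alone. Calls among all 10303 genes tested were also most numerous in that fit, in both directions, so the rise was not particular to carriers. The median log2 difference there was 0.51 for all genes tested and 0.64 for the carriers. A pseudocount of 0.5, membership at 2 FPKM and limma-voom on recovered reads, chosen after seeing the data, gave 5 to 7 higher and 2 lower. Of all genes, 311 to 471 were higher and 87 to 107 lower with these 3 settings. With the replicate number as a block, 19 carriers were higher and 5 lower, beside 1636 and 288 of all genes. The replicate differences of the pairs correlated at 0.12 across genes and 0.22 across carriers, and 2 pairs do not show that the numbers pair the libraries. Over all alternatives, the 44 named carriers kept direction and side of the threshold 504 times, were newly past it 34 times, lost it 42 times and reversed 25 times; the cause was not tested. Reversed values after centring were -0.13 for SLC12A2, -0.21 for SLC25A26, -0.34 for SLC25A5, -0.23 for SLC38A2, -0.43 for SLC38A9, -0.29 for SLC47A1, -0.35 for SLC6A4, -0.42 for SLC7A11 and -0.25 for SLC8A1. After quantile normalization they were -0.06 for SLC12A2, -0.36 for SLC25A5, -0.27 for SLC38A2, -0.10 for SLC38A9, -0.19 for SLC47A1, -0.46 for SLC7A11 and -0.02 for SLC8A1. Without SCNT replicate 2 they were -0.10 for SLC25A26, -0.11 for SLC25A5, 0.14 for SLC35A5, -0.89 for SLC47A1 and -0.00 for SLC8A1. Without SCNT replicate 1, SLC38A9 was at -0.08. Without IVF replicate 1, SLC38A9 was at -0.12 and SLC7A11 at -0.04, and without IVF replicate 2, SLC25A5 was at -0.21. With 1 library left out at a time, the other end of the range was 0.67 for SLC25A26, 0.52 for SLC25A5, -0.62 for SLC35A5, 0.25 for SLC38A9, 1.30 for SLC47A1, 0.19 for SLC7A11 and 0.49 for SLC8A1.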
